A study of Mus musculus with 11 samples.

Results

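The 4 myogenic regulatory factor genes Myf5, Myf6, Myod1 and Myog were examined for H3K4me3, H3K27me3 and H3K36me3 in satellite cells (SCs), the stem cells of skeletal muscle. They were taken as every peak that overlapped the gene or about 10 kb on either side of it, in mm9 coordinates. Myf5 and Myf6 lie next to each other and share a window of 32 kb on chromosome 10, Myod1 was read from 23 kb on chromosome 7 and Myog from 22 kb on chromosome 1. Of the 212879 peaks in all 8 peak lists, 30 lay in these 3 windows. H3K4me3 gave 25 of them, with 6 in quiescent SCs (QSCs) and 13 in activated SCs (ASCs) of young mice and 6 in QSCs of old mice. H3K36me3 gave 5, with 1 in QSCs and 4 in ASCs of young mice, and H3K27me3 gave 0 in any of the 3 cell states.

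All cells came from hindlimb muscles of male C57BL/6 mice, aged 2 to 3 months (young) or 22 to 24 months (old), and were sorted as VCAM+, CD31-, CD45- and Sca1-. According to the sample labels, ASCs were sorted young QSCs that had been cultured for 3 days on a matrix-coated surface in medium with horse serum, whereas the study's text speaks of activation in vivo, and the labels are followed here. Fixed cells were kept frozen until enough of them had been collected, so a library may hold cells of several sorts. Each cell state had 1 library per mark, 8 in all because H3K36me3 was analysed in young mice only, and 3 input libraries were not analysed here. Without replicates no difference between states could be tested, and every comparison is between single libraries. In a library of many cells, fewer cells with a mark and less of it per cell cannot be told apart. The number of reads is unknown, and the ASC lists of all marks and the old H3K27me3 list hold more peaks than those of young QSCs (32846 against 24701 for H3K4me3), so depth and state cannot be told apart. The identity of the sorted cells was not checked against marker genes, since no annotation in mm9 was at hand.

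Myf5, Myod1, Myog and Myf6 encode transcription factors of the basic helix-loop-helix family, which bind the E-box (letters CANNTG) and turn on muscle genes. Myf5 and Myod1 commit cells to the muscle lineage, Myog (myogenin) drives the differentiation of myoblasts, and Myf6 (MRF4) acts late in differentiation and in the muscle fibre. H3K4me3 marks active or poised promoters, H3K27me3 is laid down by Polycomb complexes at repressed genes, and H3K36me3 accumulates over the bodies of transcribed genes. A peak's score is the one given by the peak caller, read here on the usual scale of MACS as 10 times the negative log10 of its p-value. Scores begin at 50 (a p-value of 1e-05), and many strong peaks are tied at 3100. Because scores depend on depth, many peaks are given with the share of their own list that scored higher, and scores alone should not be compared between lists.

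The promoters of Myf5 and Myog, 250 bases before to 50 bases after the start of transcription, are shown because young QSCs had broad H3K4me3 at Myf5 and none called at Myog. The sequences are those of RefSeq on GRCm38.p6, a later build than that of the peaks, and were found for 2 of the 4 genes. Capitals mark E-boxes, searched on both strands. Myf5 is at chr10:107486085-107486384 on the minus strand and Myog at chr1:134289754-134290053 on the plus strand.
Myf5: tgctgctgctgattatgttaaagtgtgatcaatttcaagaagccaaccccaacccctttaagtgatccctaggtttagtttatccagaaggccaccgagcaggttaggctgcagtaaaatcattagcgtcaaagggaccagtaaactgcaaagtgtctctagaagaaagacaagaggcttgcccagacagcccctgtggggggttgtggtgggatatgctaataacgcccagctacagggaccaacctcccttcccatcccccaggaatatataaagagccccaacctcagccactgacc
Myog: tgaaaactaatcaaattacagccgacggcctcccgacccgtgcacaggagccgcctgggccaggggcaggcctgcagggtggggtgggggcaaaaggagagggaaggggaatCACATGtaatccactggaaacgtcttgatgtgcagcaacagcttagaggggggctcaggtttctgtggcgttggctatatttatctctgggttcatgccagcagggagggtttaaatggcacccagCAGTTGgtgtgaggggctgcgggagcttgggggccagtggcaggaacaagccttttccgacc
The Myog promoter held 2 E-boxes, starting 138 and 12 bases before the start of transcription, and that of Myf5 held 0. Of all 32851 promoters in the table, 72.3% held at least 1 E-box and 39.6% at least 2. Neither promoter was rich in CpG dinucleotides. Myf5 had 3 in 300 bases and Myog 9, compared with a median of 7, and 68.6% and 43.5% of all promoters had more.

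**Figure D1:**
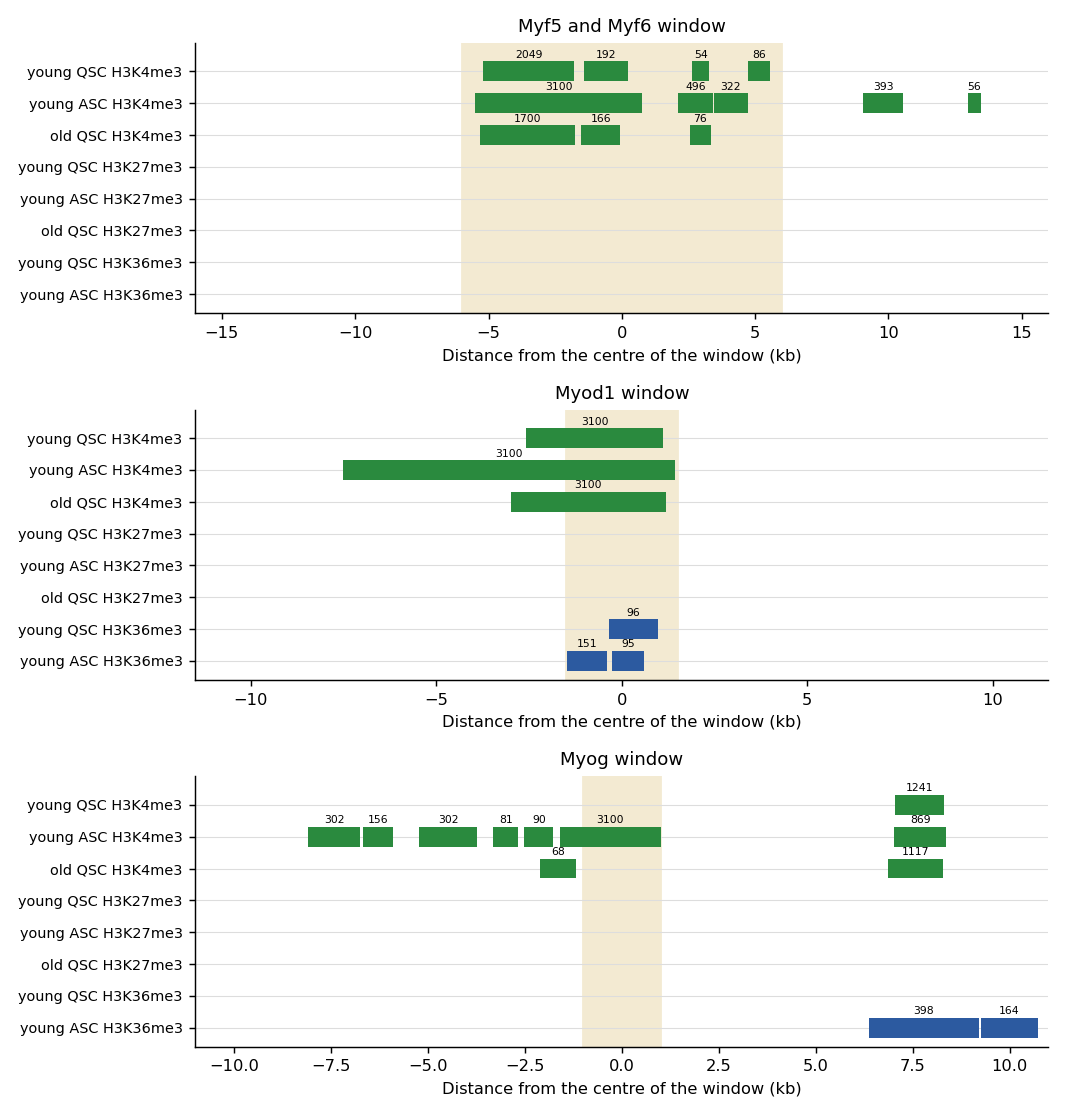
Peaks of the 8 lists in the windows of Myf5 and Myf6, Myod1 and Myog, as boxes from start to end against the distance from the centre of the window in kb, with the MACS score above each box. The shaded band is the window without its 10 kb flanks, and H3K4me3 is in green and H3K36me3 in blue. ASCs hold the widest H3K4me3 box in each window, the 6 ASC boxes on and left of Myog have 1 counterpart in old QSCs and 0 in young QSCs, and the H3K27me3 rows are empty.

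Myf5, the earliest of the factors to be expressed in muscle development, carried a broad H3K4me3 domain in all 3 cell states. In young QSCs it consisted of a peak of 3440 bp with a score of 2049.5 (chr10:106920782-106924221) and a second of 1660 bp with a score of 192 (chr10:106924569-106926228). In ASCs a single peak of 6255 bp with a score of 3100 covered the same place (chr10:106920498-106926752). In old QSCs the domain was again in 2 pieces, of 3583 bp with a score of 1699.6 and of 1456 bp with a score of 166. The summed width was thus 5100 bp in young QSCs, 6255 bp in ASCs and 5039 bp in old QSCs, and the span from first to last base in ASCs was 1.15 times that in young QSCs. These were wide peaks in every list. Only 2.62% of the H3K4me3 peaks of young QSCs were wider than the larger piece, 2.77% in old QSCs, and in ASCs 198 of 32846 peaks, or 0.603%, were wider than the joined peak. By score, 26.5% of the young QSC list and 38.0% of the old list were above the larger piece. For the smaller piece these shares were 63.9% and 65.8%. In ASCs 0.390% of the list scored higher than the joined peak, and 10241 peaks had its score.

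On the other side of the shared window, where Myf6 lies in the gene order of GRCm38, H3K4me3 was weak in QSCs. The assignment to Myf5 or Myf6 rests on that order, since positions of the genes in mm9 were not used. Young QSCs had 2 narrow peaks there, of 648 bp with a score of 54.4 (chr10:106928636-106929283) and of 824 bp with a score of 86.1 (chr10:106930729-106931552), and 96.1% and 80.0% of the list scored higher. Old QSCs kept a peak at the first place only, of 776 bp with a score of 75.8. ASCs had 4 peaks, of 1319, 1257, 1472 and 474 bp with scores of 496, 322, 393 and 55.6, so that the summed width was 1472 bp in young QSCs, 4522 bp in ASCs and 776 bp in old QSCs. The strongest, at chr10:106928105-106929423, was called in all 3 states and was 2.04 times as wide in ASCs as in young QSCs. The second peak of young QSCs had no overlapping peak in ASCs, but the ASC peak below it ended 15 bases short of it. For 3 of these ASC peaks 46.1% to 50.7% of the list scored higher, and for the narrowest 93.7%.

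Myod1, which encodes MyoD, had H3K4me3 with a score of 3100 in all 3 states, exceeded by 1.27%, 0.390% and 1.19% of the lists of young QSCs, ASCs and old QSCs. This score was shared by 3211 peaks in young QSCs, 10241 in ASCs and 5397 in old QSCs. Scores tied at 3100 cannot show whether the strength was equal in the 3 states, but the widths differed. The peak measured 3680 bp in young QSCs (chr7:53630927-53634606), 8954 bp in ASCs (chr7:53625978-53634931) and 4188 bp in old QSCs (chr7:53630499-53634686). The ASC peak was among the widest of its list, with 45 of 32846 peaks wider. Nearly all of the added length lay on one side. The lower edge reached 4949 bp farther out in ASCs than in young QSCs and the upper edge 325 bp, while in old QSCs the edges moved out by 428 and 80 bp.

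Over the genome, 17567 H3K4me3 sites were called once in young QSCs and once in ASCs, and 61.6% of them (95% Wilson interval 60.9% to 62.3%, counting error only) were wider in ASCs, with a median ratio of 1.08. Of the sites in the 3 windows that could be paired in this way, 3 of 3 were wider in ASCs. They included a peak beside Ppfia4, the gene next to Myog, with a ratio of 1.06, and another on the Myf6 side with 2.04. At Myod1 the ratio was 2.43, and 1.7% of all such sites (1.52% to 1.90%) reached it. An edge that moved out at least as far as the lower edge of Myod1 was found at 15 sites, or 0.0854%. Between young and old QSCs 18717 sites could be paired, 66.1% of which were wider in old QSCs, with a median ratio of 1.05. Of the paired sites in the windows, including the one on the side of Ppfia4, 4 of 5 were wider in old QSCs. The ratio at Myod1 was 1.14, and 28.5% of all sites were at or above it, so its difference with age was an ordinary one in these lists, whereas its difference on activation lay in the tail. These comparisons place a gene chosen with earlier results known, and are descriptions with no test.

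**Figure D2:**
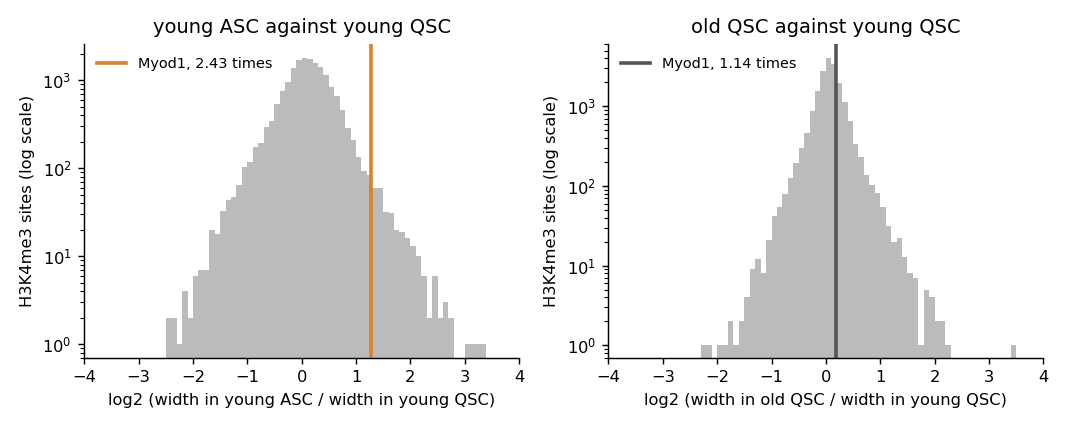
Number of H3K4me3 sites (log scale) by the log2 ratio of peak width in ASCs (left) or old QSCs (right) to that in young QSCs, over all sites called once in each list. The line is Myod1, 2.43 times as wide in ASCs, in the right tail, and 1.14 times as wide in old QSCs, close to the centre.

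Myog showed the largest difference in covered length between the cell states. Young QSCs had 0 H3K4me3 peaks at the gene or below it in the window. ASCs had a peak of 2594 bp with a score of 3100 at chr1:136186407-136189000, which spans the window without its flanks, the place of the gene, and 5 further peaks on the upstream side, of 658 to 1495 bp with scores of 81.4 to 302.4. Together these 6 peaks covered 7609 bp and reached down to chr1:136179919. In the gene order of GRCm38 Myoparr, a gene of a long noncoding RNA, comes next to Myog on this side. Which gene the upstream peaks belong to was not resolved. Old QSCs had 1 weak peak, of 915 bp with a score of 68.2 (chr1:136185892-136186806), which shared 400 bp with the large ASC peak and overlapped the ASC peak next to it, and 86.8% of the old list scored higher. Requiring a score of at least 100 removed this peak, so a difference between young and old QSCs at Myog rested on a call near the lowest score.

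A last H3K4me3 peak in the Myog window, on the side of the next gene, Ppfia4, did not share this difference. It measured 1260 bp in young QSCs (chr1:136195043-136196302), 1337 bp in ASCs and 1426 bp in old QSCs, with scores of 1240.5, 869 and 1116.8. It is the only H3K4me3 peak of young QSCs in the window and overlapped those of the other states. With it, the covered length of the Myog window was 1260 bp in young QSCs, 8946 bp in ASCs and 2341 bp in old QSCs.

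A new peak in ASCs was in itself common. Of the H3K4me3 peaks of ASCs, 41.3% (40.7% to 41.8%) overlapped 0 peaks of young QSCs, and so did 9 of 13 in the 3 windows, 6 of these at Myog and 3 on the Myf6 side. New peaks as strong as that at Myog were rare. Among the 13557 new peaks the median width was 699 bp and the median score 88, only 64 of them (0.472%) had a score at or above 3100, and 1.67% were at least as wide as the Myog peak. Those 64 had a median width of 4322 bp, so the peak at Myog was narrower than is usual among them. When the genome was cut into tiles of 22 kb, the length of the Myog window, 22802 tiles held an ASC peak, and 79 of these (0.346%) had at least 6 more peaks in ASCs than in young QSCs, as the Myog window did with 7 against 1. This count depends on how a stretch was split into peaks. With peaks joined across gaps under 1 kb, the Myog window held 2 peaks in ASCs against 1 in young QSCs. The share of tiles was not computed for joined peaks. Of the H3K4me3 peaks of old QSCs, 19.5% lacked a counterpart in young QSCs, and 1 of the 6 in the windows did. Of the old peaks without a counterpart, 22.3% overlapped a peak of ASCs, as the weak peak at Myog did.

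In the other direction, 5 of the 6 H3K4me3 peaks of young QSCs in the windows overlapped a peak of ASCs and 5 of 6 a peak of old QSCs, beside 78.6% and 80.5% of all peaks of that list. The exception was in both cases the peak of 824 bp on the Myf6 side. The peaks in the windows, including the one on the side of Ppfia4, thus kept H3K4me3 about as often as peaks in general did.

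**Figure D3:**
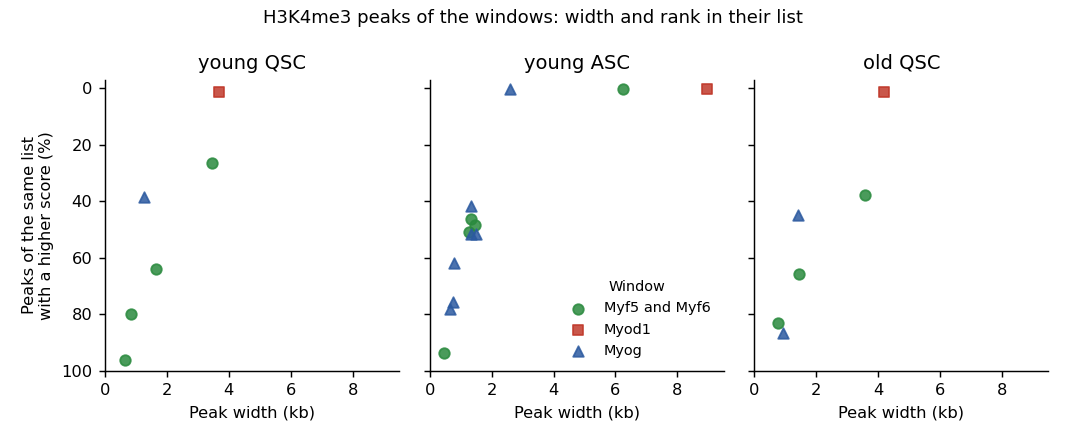
Each H3K4me3 peak of the 3 windows by its width in kb and by the percentage of its own list with a higher score, with the strongest at the top. Myod1 is near the top in each state and moves right to a width of 8954 bp in ASCs. Myf5 and Myog have a peak near the top in ASCs only, and most other peaks are under 2 kb wide. In ASCs these 3 genes share their place with all 10241 peaks tied at a score of 3100.

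H3K27me3 was called at 0 places in the 3 windows in young QSCs, ASCs and old QSCs. None of the 6, 13 and 6 H3K4me3 peaks had an H3K27me3 peak of the same state within 10 kb, beside 22.2%, 30.9% and 37.5% of all H3K4me3 peaks in the respective lists. The larger H3K27me3 list of ASCs thus added 0 peaks at these genes. From the widest ASC peak of each gene, the nearest H3K27me3 peak was 842 kb away in young QSCs, 70.6 kb in ASCs and 116 kb in old QSCs at Myf5, and 53.4, 34.5 and 54.3 kb away at Myog.

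Myod1 was the closest of the genes to Polycomb chromatin. On the side of the next gene, Kcnc1, which encodes a potassium channel, H3K27me3 covered 7355 bp in young QSCs (chr7:53648370-53655724), 7073 bp in ASCs (chr7:53649203-53656275) and 2672 bp in old QSCs (chr7:53651164-53653835). The peaks had scores of 3100, 3100 and 1392.2, exceeded by 0.0944%, 0.146% and 0.471% of their lists. They began 3.37, 4.20 and 6.16 kb beyond the end of the window. The old H3K27me3 list had narrower peaks in general, with a median of 838 bp against 1228 bp in young QSCs. It held 6 peaks at a score of 3100, against 77 in young QSCs. Whether this domain differed with age beyond that was not tested. An H3K4me3 peak lay wholly within this H3K27me3 in each state, with widths of 2403, 2945 and 2431 bp. Most of the H3K4me3 that ASCs had in addition at Myod1 lay on the far side of the gene from this domain, and 14.3 kb separated both peaks in ASCs.

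H3K36me3 was profiled in young mice only. At Myod1 QSCs had a peak of 1320 bp with a score of 95.5 (chr7:53633156-53634475), and all 1320 bp lay within the H3K4me3 peak. ASCs had 2 peaks there, of 1085 bp with a score of 151 (chr7:53632024-53633108) and of 865 bp with a score of 94.9 (chr7:53633243-53634107), or 1950 bp together. They were ordinary peaks of their lists, with 41.7% of the QSC list and 34.5% of the ASC list above the strongest. They lay toward the upper end of the H3K4me3 peak, whose ASC extension on the other side carried 0 H3K36me3 peaks. The covered length depends on the score that is required, since at a score of at least 100 QSCs kept 0 bp and ASCs 1085 bp.

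At Myf5, Myf6 and the body of Myog 0 H3K36me3 peaks were called in QSCs or ASCs, including under the H3K4me3 domain of 6255 bp at Myf5, from which the nearest H3K36me3 peak was 356 kb away in QSCs and 716 kb in ASCs. The 2 H3K36me3 peaks of ASCs in the Myog window, of 2835 and 1481 bp with scores of 398 and 164, began 5.36 kb above the Myog peak, on the side of Ppfia4, where 5 more followed within 15 kb of the window. QSCs had 0 in the window. Of the H3K4me3 peaks in the windows, 1 of 6 in QSCs and 2 of 13 in ASCs overlapped H3K36me3, beside 12.9% and 7.7% of all H3K4me3 peaks. The peak in QSCs was that at Myod1. Those in ASCs were that at Myod1 and the peak on the side of Ppfia4, which is not at a member. Within 10 kb it was 1 of 6 and 5 of 13, beside 36.9% and 41.6%. Apart from Myod1, the ASC peaks among these were in the Myog window, near H3K36me3 on the side of Ppfia4 only.

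**Figure D4:**
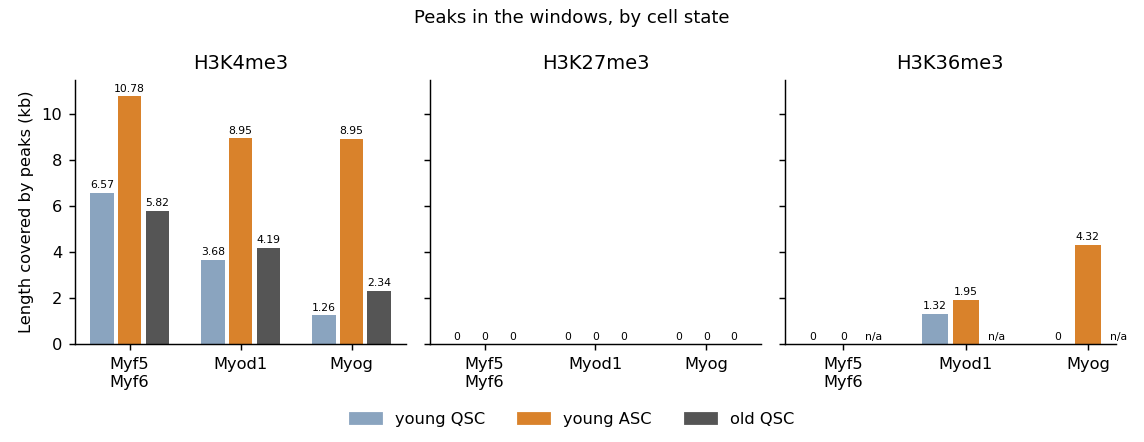
Length in kb covered by peaks of each mark in the windows of Myf5 and Myf6, Myod1 and Myog, for young QSCs, ASCs and old QSCs, from 1 library each, with the value above each bar. H3K4me3 is longest in ASCs in all 3 windows, 8946 bp against 1260 bp in young QSCs at Myog, H3K27me3 is at 0, and n/a marks the old QSCs, for which no H3K36me3 library was used.

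Over the 3 windows H3K4me3 covered more in ASCs than in young QSCs, with a log2 ratio of 0.71 for the window of Myf5 and Myf6 (10777 against 6572 bp), 1.28 for Myod1 and 2.83 for Myog. For old over young QSCs the ratios were -0.18, 0.19 and 0.89. The whole H3K4me3 lists also differed, covering 37.4 Mb in young QSCs, 49.2 Mb in ASCs and 39.2 Mb in old QSCs. Part of a longer cover in ASCs is thus general to that list. In young QSCs Myod1 and Myf5 had the highest scores and no peak was called at Myog, whereas in ASCs Myf5, Myod1 and Myog all had a peak at 3100. A score of 3100 or more was held by 31.6% of the ASC list and by 14.3% of the young QSC list.

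The combination of lists that called a peak at each gene was compared with that at all 40896 H3K4me3 sites, obtained by joining the overlapping peaks of the 3 states. Myf5 had H3K4me3 in all 3 states and nothing else, like 10801 sites (26.4%, interval 26.0% to 26.8%), of which 74 were wider. Myod1 had H3K4me3 in all 3 states and H3K36me3 in QSCs and ASCs, like 457 sites (1.12%, 1.02% to 1.22%), of which 20 were wider. Myog had H3K4me3 in ASCs and old QSCs only, like 554 sites (1.35%, 1.25% to 1.47%), of which 5 were wider than the joined site at Myog (3512 bp). With scores of at least 100 Myog had H3K4me3 in ASCs alone, like 5685 of 26580 sites (21.4%), Myod1 lost H3K36me3 of QSCs from its combination, shared then by 1.66% of sites, and the share of Myf5 was 40.9%. When 50% of the shorter peak had to overlap, the share of Myod1 was 0.614%. The genes at these other sites were not identified.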

How the data were processed

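SCs were profiled by ChIP-seq for H3K4me3, H3K27me3 and H3K36me3. Per the labels, the authors aligned reads with Bowtie to mm9. The names of the peaks and lists are those of the peak caller MACS, run with input as control. Versions and other settings are not given in the sources used here. The authors deposited 1 peak list per ChIP library, with a score per peak, taken as 10 times the negative log10 of the p-value (lowest 50). Replicates were not pooled, as there was 1 library per cell state and mark.

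Samples were grouped by title. Peaks sharing at least 1 bp with a window were taken, with starts counted from 1, and overlaps, widths, ranks and tiles were computed in Python (3.11.15) from tables read with pandas (2.3.3) and numpy (2.4.6). The overlap function, tested on simulated data, found 800 of 800 planted overlaps among 2000 peaks and gave the counts of bedtools 2.31.1 on 2 pairs of lists. Plots were drawn with matplotlib (3.10.9), and scipy (1.17.1) gave the Wilson intervals. The genes, windows and comparisons were chosen with earlier results of these data known. All 4 genes are named, and the rule fixed for other genes and for cell type markers needed an annotation in mm9, so no like-patterned gene or marker is given. RefSeq on GRCm38.p6 gave the promoter sequences and the names and order of neighbouring genes, and no coordinates were converted. Alternatives were a score of at least 100, equal numbers of top-scoring peaks, other windows, overlap of 50%, and joining peaks across gaps under 1 kb.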

Additional observations from a re-analysis of the deposited data

How the results depend on the processing

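Values were taken as moved where they changed by more than 1.5 times, or left the 95% interval of a share. Of 80 values that answer a comparison, 66 kept within this limit, some of which could not move. A count of 0 peaks stays at 0 under every setting that only drops or joins peaks. Every peak lay wholly inside its window, so counting only peaks with at least 50% of their length inside could change nothing. Joining peaks across gaps under 1 kb and using equal numbers of top-scoring peaks left all 6 ratios of H3K4me3 length within the limit. With the shared window split at its midpoint, the log2 ratio of ASCs over young QSCs was 1.63 in the part of Myf6. That of old over young QSCs was -1.13 in the part of Myf6 and 0.0489 in that of Myf5, where its sign changed. The cut fell inside the Myf5 domain and kept only 4871 of its 5100 bp for young QSCs, but all 5039 bp for old QSCs. For the uncut domain the direction thus did not turn. The part of Myf6 took in the cut-off Myf5 bases of young QSCs and ASCs, so its ratios are not those of the Myf6 side alone. Without the flanks the ratio of ASCs over young QSCs at Myod1 was 0.17, since the added length lies in the flank, at Myog it could not be formed with young QSCs at 0, and H3K36me3 of ASCs in the Myog window was 0 bp. With 10 kb more on each side, that ratio at Myog was 3.44, H3K36me3 of ASCs there was 12070 bp, and each state had 1 H3K27me3 peak, the one beyond Myod1. With scores of at least 100, the ratio of old over young QSCs at Myog was 0.18, and H3K36me3 at Myod1 covered 0 bp in QSCs and in ASCs 1085 bp, the latter also with equal numbers of top-scoring peaks (1085 bp). Of the other 311 values, 260 stayed within the limit and 51 moved, and counts of 0 were again among those that stayed. Depth is unknown, so a place without a peak is one where none was called, which does not show that the mark was absent.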

Other observations

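H3K4me3 in ASCs also extended beyond the windows at Myog and Myod1. Below the Myog window ASCs had a peak of 3182 bp with a score of 531 (chr1:136171284-136174465), 2.53 kb away, where the nearest peaks of young and old QSCs were 34.6 kb below the window. Below the Myod1 window ASCs had peaks of 1767 and 1023 bp with scores of 135 and 89.8, 0.894 and 12.1 kb away, where QSCs of either age had 0. The next ASC peak, of 5046 bp with a score of 3100 (chr7:53602927-53607972), was at a place called in all 3 states. The nearest peaks of young and old QSCs ended inside it, 15.8 and 15.9 kb below the window. Around the window of Myf5 and Myf6, 0 peaks of any list lay within 15 kb.

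The H3K36me3 peaks of ASCs above the Myog window had scores of 116 to 1143.8. The strongest was 4749 bp wide (chr1:136207745-136212493), and 1.21% of the ASC list scored higher. Young QSCs had 1 peak there, of 1393 bp with a score of 63.4.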
